A study of Mus musculus with 6 samples.

Results

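The UDP-glucuronosyltransferases (UGTs) and cytosolic sulfotransferases (SULTs) are the main conjugating enzymes of the liver. They were taken from the gene-level count table as its protein-coding genes whose names begin with Ugt1, Ugt2, Ugt3, Ugt8 or Sult and a number. The rule found 43 of 54532 genes, of which 22 are UGTs and 21 are SULTs. RNA was sequenced from the livers of male mice in 6 libraries. In 3 of them (WT 1, WT 2 and WT 3) the label gives wild-type littermates. The other 3 (KO 4, KO 5 and KO 6) are labelled as mice lacking Trem2, a lipid-sensing receptor of macrophages. Both groups were 8 weeks old when a high-fat diet began and ate it for 8 weeks, so a group on ordinary chow was not analysed here and every level below is one of diet-fed liver. Trem2 is a gene of macrophages, whereas most UGT and SULT RNA comes from hepatocytes. In whole liver, fewer cells of a type and less RNA per cell cannot be told apart.

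UGTs sit in the membrane of the endoplasmic reticulum and join glucuronic acid, carried by UDP, to bilirubin, bile acids, steroids and drugs. SULTs work in the cytosol and transfer sulfate from the donor PAPS to phenols, steroids and bile acids. Both reactions make their substrates more soluble, and exporters then carry the conjugates into bile or blood. In rodent liver many of these genes differ between the sexes, and several Sult2a and Sult3a genes are known as female-predominant.

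The levels of the Ugt1a genes depend on how their reads were assigned, because all 9 Ugt1a genes on chromosome 1 (build mm10) end in the same exons. A first coding exon, which sets the substrate, is joined in each to the same 735 coding bases. These first exons differ between most of the genes. For each gene only a GENCODE M21 transcript with the longest coding sequence was used. That of Ugt1a7c has the first coding exon of Ugt1a6a (chr1:88138473-88139331) and an identical coding sequence. The Ugt1a7c gene itself begins at 88095062 and has 1915 of 4219 exonic bases of its own, and its other transcripts, if any, were not compared. The lines below give, from the GENCODE M21 transcripts, the last 30 bases of the first coding exon in lower case and the first 30 bases of the shared exon, chr1:88215044-88215175 on the plus strand, in capitals. They are shown because reads within the capitals cannot tell any of these genes apart. Reads within the lower-case bases can separate only genes that differ there. The 30 lower-case bases of Ugt1a5 are the same in Ugt1a2.
Ugt1a1: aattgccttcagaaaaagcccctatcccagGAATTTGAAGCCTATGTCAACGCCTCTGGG
Ugt1a5: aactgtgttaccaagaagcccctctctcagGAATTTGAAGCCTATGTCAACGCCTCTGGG
Ugt1a6a and Ugt1a6b: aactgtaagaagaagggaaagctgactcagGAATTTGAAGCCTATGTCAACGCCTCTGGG
Ugt1a9: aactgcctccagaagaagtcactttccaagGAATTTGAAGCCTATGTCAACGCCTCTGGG
The junction is the same in Ugt1a6a and Ugt1a6b, whose coding sequences are 98.4% identical. Of its 2224 exonic bases Ugt1a1 has 385 that no other gene's exons cover; part of its first exon is also overlapped by the antisense gene Gm20528, which was at 0 in every library. Ugt1a6a has 2142 of 4312 such bases and Ugt1a6b has 938 of 2382. The rule for counting reads in shared exons was not given in the sources used here, so the level of each single Ugt1a gene is uncertain. Ugt1a8 has 1318 of its 2227 exonic bases in common with other genes, yet had 0 counts in every library. Reads in the shared exons were thus not credited to every gene that holds them, and levels over the full exon length may be too low.

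The 7 Ugt2b genes lie together on chromosome 5, in the same stretch as Ugt2a1, Ugt2a2, Ugt2a3, Sult1b1, Sult1d1 and Sult1e1. Each Ugt2b gene has its own exons, with close copies among them: Ugt2b38 and Ugt2b5 are 97.0% identical in coding sequence, Ugt2b37 and Ugt2b5 94.7%, and Ugt2b1 and its closest relative Ugt2b34 74.7%. In the RefSeq promoter table (build GRCm38.p6; 250 bases before and 50 after each start), the letters TTCNNNGAA, bound by the growth hormone effector STAT5 and the same on both strands, were in 2 of 40 member promoters (Sult3a1 and Ugt1a6a) and in 8.3% of all promoters. A match is a run of letters and no evidence of binding.

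Libraries held between 11591021 and 20399361 counts. KO 4, WT 2 and KO 6 were the shallowest, in that order, and had the largest shares of mitochondrially encoded counts: 28.0% in KO 4, 19.8% in KO 6 and 12.7% in WT 2, against 8.16% to 10.2% in the others. Trem2 itself had 7, 26 and 26 counts in WT 1 to WT 3 and 9, 6 and 5 in KO 4 to KO 6. WT 1 thus lay in the range of the KO-labelled libraries, and the label of WT 1 could not be checked with so few counts. The extent of the deletion within the gene was not given in the sources used here. All 6 hepatocyte markers were detected, with summed levels, in counts-per-million units after TMM scaling (CPM), of 71473 to 102662 in WT and 73954 to 78191 in KO. The 6 Kupffer cell and macrophage markers summed to 61.3 to 91.1 CPM in WT and 105 to 182 in KO, and the 5 sinusoidal endothelial markers to 82.4 to 87.7 and 114 to 132. Kidney tubule markers were nearly absent (4 of 5 at 0 in every library). Of the 5 pancreatic markers, Cela1 alone had more than 1 count, at 13.0 to 79.0 CPM. Cpa1 and Cel had 1 count each over all 6 libraries, and the other 2 were at 0. The part of these differences in cell markers and mitochondrial counts in the results below was not tested.

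Ugt2b5, Ugt2b36, Sult1a1 and Sult2a8 had the highest levels per length in both groups. CPM per kilobase of exon (RPKM), which allow levels to be compared between genes, averaged 276 over the 6 libraries for Ugt2b5, 265 for Sult1a1, 255 for Ugt2b36 and 205 for Sult2a8. Ugt2b1 came next in WT, with a mean of 175 RPKM, but in KO its 69.2 was below the 72.6 of Sult1d1, the 72.5 of Ugt2a3 and the 71.6 of Ugt2b34. Over all 6 libraries Ugt2b1 averaged 122 RPKM, Ugt2a3 90.9, Sult1d1 88.0, Ugt3a2 81.6 and Ugt2b34 79.1. Ugt2b5, Sult1a1 and Ugt2b36 had overlapping library values, so their order is not set by these data. Sult2a8 overlapped all of them in WT (201 to 321 RPKM). In KO (129 to 186 RPKM) it lay below Ugt2b5 and Ugt2b36 and overlapped Sult1a1. Ugt2b genes made up 72.1% to 84.3% of the summed UGT CPM in each library. Ugt1a genes made up 0.520% to 2.74%. This Ugt1a share may be too low, because reads in the exons that these genes have in common may not have been counted. The Ugt2b genes have no exonic bases in common with other genes, so the shares of these groups are not directly comparable. Ugt1a1, the bilirubin-conjugating enzyme, averaged 8.42 RPKM over its full exon length, and 48.6 when its counts were divided by the bases it shares with no other gene. Those bases leave out the part of its first exon overlapped by the antisense gene Gm20528. If reads there were counted, the second value is too high, and the strand setting was not given.

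**Figure D1:**
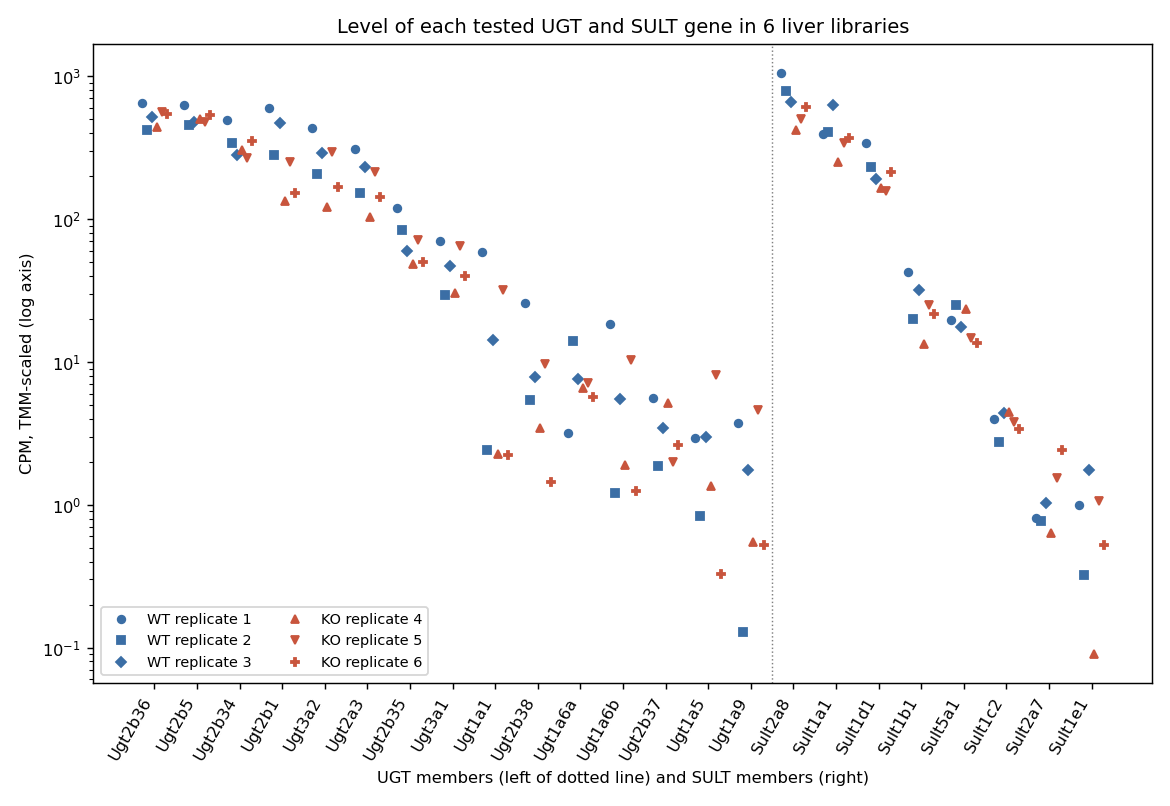
Level of each of the 23 tested UGT and SULT genes in each library, in CPM after TMM scaling on a log axis; blue symbols are WT libraries and red symbols KO libraries, 1 shape per library. The abundant Ugt2b5 and Ugt2b36 have tightly packed points (423 to 653 CPM for Ugt2b36), while Ugt1a1 is spread from 2.23 to 59.1 CPM with WT and KO mixed.

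Of the 43 genes, 23 had enough counts to be tested (15 UGTs and 8 SULTs). The question put to them was whether livers labelled as lacking Trem2 differ from wild-type livers in conjugating enzymes. With edgeR's quasi-likelihood test and Benjamini-Hochberg adjustment over all 13693 genes tested, 0 of the 23 passed an adjusted p of 0.05. Few genes of any kind did: 2 of 13693 (0.0146%), both higher in KO. At an unadjusted p under 0.05, 0 members were higher and 2 were lower (Ugt2b1 and Sult2a8), against 5.37% of all tested genes higher and 3.21% lower. DESeq2 called 1 member, Ugt2b1, and 1.17% of the genes it tested (0.733% higher and 0.432% lower). The limma-voom test called 0 members.

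All KO libraries lay below all WT libraries for 3 members, Ugt2b1, Sult2a8 and Sult1a1, and above for 0; over all tested genes these shares were 5.73% and 8.12%. The fitted change was below 0 for 19 of the 23 members (13 of 15 UGTs and 6 of 8 SULTs), against 50.9% of all tested genes. The median log2 fold change, KO over WT, was −0.36 for the UGTs, −0.54 for the SULTs and −0.01 for all tested genes. For the UGTs this rested on WT 1. Without that library 7 of 15 UGTs were fitted lower and their median was 0.12, while 6 of 8 SULTs were still fitted lower, with a median of −0.34. WT 1 held the highest value of all libraries in 15 of the 23 members, against 27.2% of all tested genes.

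**Figure D2:**
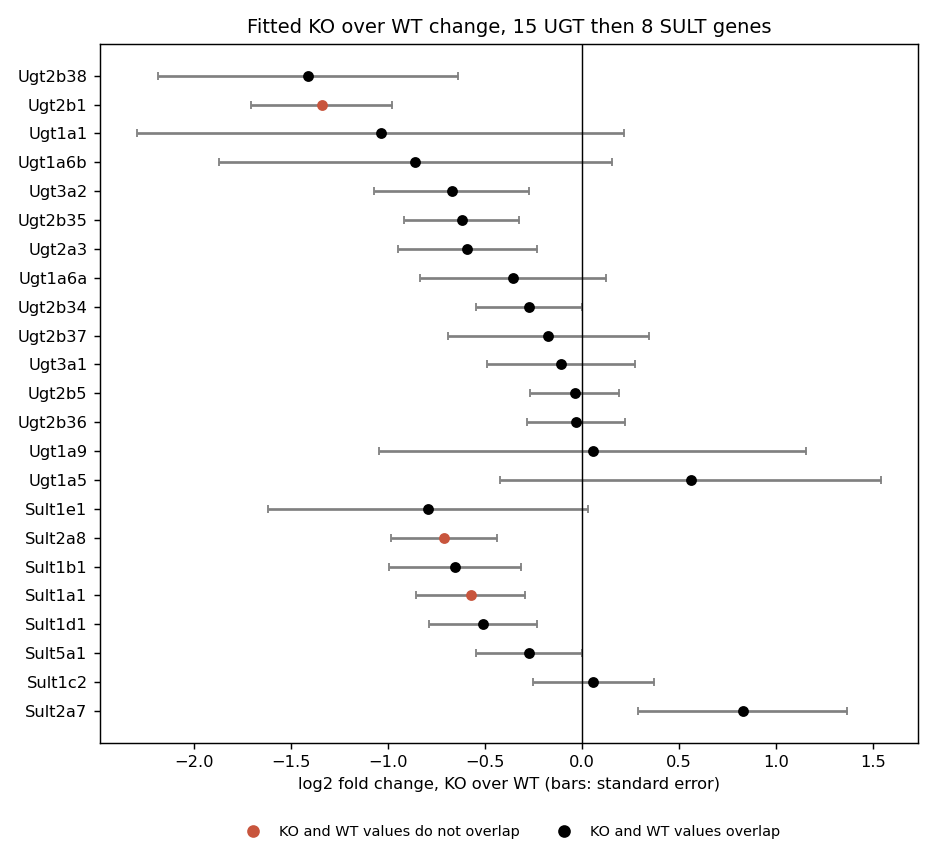
Fitted log2 fold change, KO over WT, for the 15 tested UGT and 8 tested SULT genes, with bars of 1 standard error; red points mark genes whose KO and WT values do not overlap. Ugt2b1 stands at −1.34 with a standard error of 0.36, whereas the similar estimates of Ugt2b38 (−1.41) and Ugt1a1 (−1.04) have errors of 0.77 and 1.25.

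Ugt2b1, a UGT that conjugates steroids and many drugs (ENSMUSG00000035836, chr5:86916638-86926530, minus strand), had the smallest p of the 23 tested members. It had 599, 282 and 472 CPM in WT 1 to WT 3 and 133, 249 and 152 CPM in KO 4 to KO 6. The lowest WT library, WT 2, was only a little above the highest KO library, KO 5. The means were 451 ± 159 (SD, n = 3) and 178 ± 62.5 (SD, n = 3) CPM, a fitted level 2.53-fold higher in WT. The log2 fold change was −1.34 (SE 0.36), with an unadjusted p of 0.0064 and an adjusted p of 0.400 (edgeR quasi-likelihood, Benjamini-Hochberg). DESeq2 gave −1.39 and an adjusted p of 0.0314, so the call depends on the tool. Without WT 1 the edgeR log2 fold change was −1.08. Within the UGT counts the gene took 17.5%, 14.1% and 19.4% in WT and 7.81%, 10.9% and 7.55% in KO. These shares do not overlap, but they come from the same counts and are no separate evidence.

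The 2 UGTs with the highest level per length lie in the same cluster as Ugt2b1, and their groups overlapped. Ugt2b5, which also conjugates steroids, had 626, 453 and 478 CPM in WT and 499, 480 and 538 CPM in KO. The WT range enclosed the KO values, with means of 519 ± 93.7 and 505 ± 29.6 (SD, n = 3 each). Ugt2b36 had 653, 423 and 518 CPM in WT and 443, 566 and 549 CPM in KO, with means of 531 ± 116 and 519 ± 66.3 (SD, n = 3 each). Their log2 fold changes were −0.04 (SE 0.23; edgeR adjusted p = 0.960) and −0.03 (SE 0.25; adjusted p = 0.968). The sign of both turned with the scaling or with the library left out. The difference between Ugt2b1 and these genes was not tested.

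The other tested UGTs outside Ugt1a had overlapping groups. Ugt2b34 had 284 to 498 CPM in WT and 270 to 352 in KO, and Ugt2b35 had 59.5 to 119 and 48.5 to 71.3. Ugt2a3 had 152 to 309 CPM in WT and 103 to 214 in KO. The UGT3A enzymes use sugar donors other than UDP-glucuronate. Ugt3a2 had 207 to 434 CPM in WT and 121 to 296 in KO, and its near copy Ugt3a1 (93.2% identical in coding sequence) had 29.6 to 69.8 and 30.4 to 64.9. Ugt2b37 stayed between 1.86 and 5.61 CPM in all libraries. Ugt2b38 had 26.0 CPM in WT 1, the highest value, and between 1.44 and 9.63 in the other 5. The log2 fold changes of these 7 genes ran from −1.41 for Ugt2b38 to −0.11 for Ugt3a1, with edgeR adjusted p-values between 0.619 and 0.933. Without WT 1, that of Ugt2b38 was −0.44. Reads of the near-identical copies Ugt2b38, Ugt2b37 and Ugt2b5 may have been exchanged or dropped in mapping.

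Sult2a8, a liver sulfotransferase of bile acids (ENSMUSG00000030378, chr7:14410686-14446769, minus strand), had 1056, 792 and 660 CPM in WT and 422, 501 and 609 CPM in KO. The lowest WT library was WT 3 and the highest KO library KO 6, and the groups did not overlap. Means were 836 ± 201 and 511 ± 93.8 CPM (SD, n = 3 each), a level 1.64-fold higher in WT. The log2 fold change was −0.71 (SE 0.27), with an unadjusted p of 0.0325 and an adjusted p of 0.536 (edgeR quasi-likelihood, Benjamini-Hochberg). Its closest relative by coding sequence, Sult2a4, is 70.8% identical and was at 0 in every library.

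Sult1a1, the main phenol sulfotransferase (ENSMUSG00000030711, chr7:126672865-126676432, minus strand), had 396, 406 and 629 CPM in WT and 250, 343 and 368 CPM in KO. The groups did not overlap, but WT 1 and KO 6 were close (396 and 368 CPM). Means were 477 ± 131 and 320 ± 62.0 CPM (SD, n = 3 each). The log2 fold change was −0.57 (SE 0.28), with an edgeR adjusted p of 0.623. Without WT 3, the highest library, it was −0.36. Of its 1507 exonic bases, 61 overlap the antisense gene Sgf29.

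Sult1d1, which sulfates phenols and catecholamines, had 339, 233 and 190 CPM in WT and 165, 157 and 214 CPM in KO. KO 6 lay above WT 3, so the groups overlapped. Means were 254 ± 76.6 and 179 ± 30.8 CPM (SD, n = 3 each), and the log2 fold change was −0.51 (SE 0.28; edgeR adjusted p = 0.642), or −0.25 without WT 1. Sult1b1, a sulfotransferase of thyroid hormones and phenols, had 20.1 to 42.9 CPM in WT and 13.3 to 25.1 in KO. Sult5a1 had 17.7 to 25.1 and 13.6 to 23.4, and Sult1c2 had 2.75 to 4.43 and 3.42 to 4.45. Sult1e1, the estrogen sulfotransferase, was near the limit of counting at 0.0908 to 1.75 CPM. Sult2a7 had 0.768 to 1.02 CPM in WT and 0.636, 1.53 and 2.43 in KO, the largest fitted increase of the 8 tested SULTs (log2 fold change 0.83, SE 0.54; edgeR adjusted p = 0.667). It was 0.35 without KO 6 and 0.32 on log2 of FPKM plus 1.

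Summed over all 21 genes, SULT RNA made up 1859, 1481 and 1536 CPM in WT and 880, 1048 and 1233 CPM in KO. These sums do not overlap, and Sult2a8, Sult1a1 and Sult1d1 supply nearly all of them. The 22 UGTs summed to 3427, 1995 and 2428 CPM in WT and 1705, 2285 and 2007 CPM in KO. Here WT 2 lay below KO 5 and KO 6. The sums are given as a description, with no test. Beside them, 5 of 6 hepatocyte markers were fitted lower in KO, against 50.9% of all tested genes. All 6 macrophage markers and all 5 sinusoidal endothelial markers were fitted higher. None of these markers passed the edgeR threshold, and the summed hepatocyte levels of the groups overlapped.

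Of the 5 tested Ugt1a genes, 4 varied more within each group than between the group means. Ugt1a1 had 59.1, 2.43 and 14.3 CPM in WT and 2.27, 31.9 and 2.23 in KO, from 949, 38 and 295 counts and 25, 689 and 34 counts. The highest library was thus 24.3 times the lowest within WT and 14.3 times within KO. WT 1 and KO 5 were high, WT 3 lay between, and WT 2, KO 4 and KO 6 were low. Pooled within groups, the standard deviation of log2 CPM was 2.22, larger than in 99.8% of the tested genes, whose median was 0.40. The log2 fold change was −1.04 (SE 1.25; edgeR adjusted p = 0.786), and without WT 1 it was 0.54.

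Ugt1a6b, which conjugates small planar phenols, followed the same order of libraries, with 18.3, 1.22 and 5.50 CPM in WT and 1.91, 10.3 and 1.25 in KO. Ugt1a9 had 3.74, 0.128 and 1.75 CPM in WT and 0.545, 4.59 and 0.525 in KO. Ugt1a5 had 2.93, 0.832 and 2.97 CPM in WT and 1.36, 8.06 and 0.328 in KO. In all 3 the low libraries were again WT 2, KO 4 and KO 6. Their within-group spread exceeded that of 99.3%, 99.5% and 99.1% of the tested genes. Ugt1a6a, the closest copy of Ugt1a6b among the tested genes, did not follow: it was lowest in WT 1 at 3.18 CPM, highest in WT 2 at 14.0 and 5.65 to 7.59 in the other 4. The Ugt1a6a coding sequence used here is also that of a Ugt1a7c transcript. The 2142 of 4312 exonic bases that Ugt1a6a has alone thus lie outside that coding sequence. Its counts may come largely from there, and the part of this in the contrast was not tested.

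**Figure D3:**
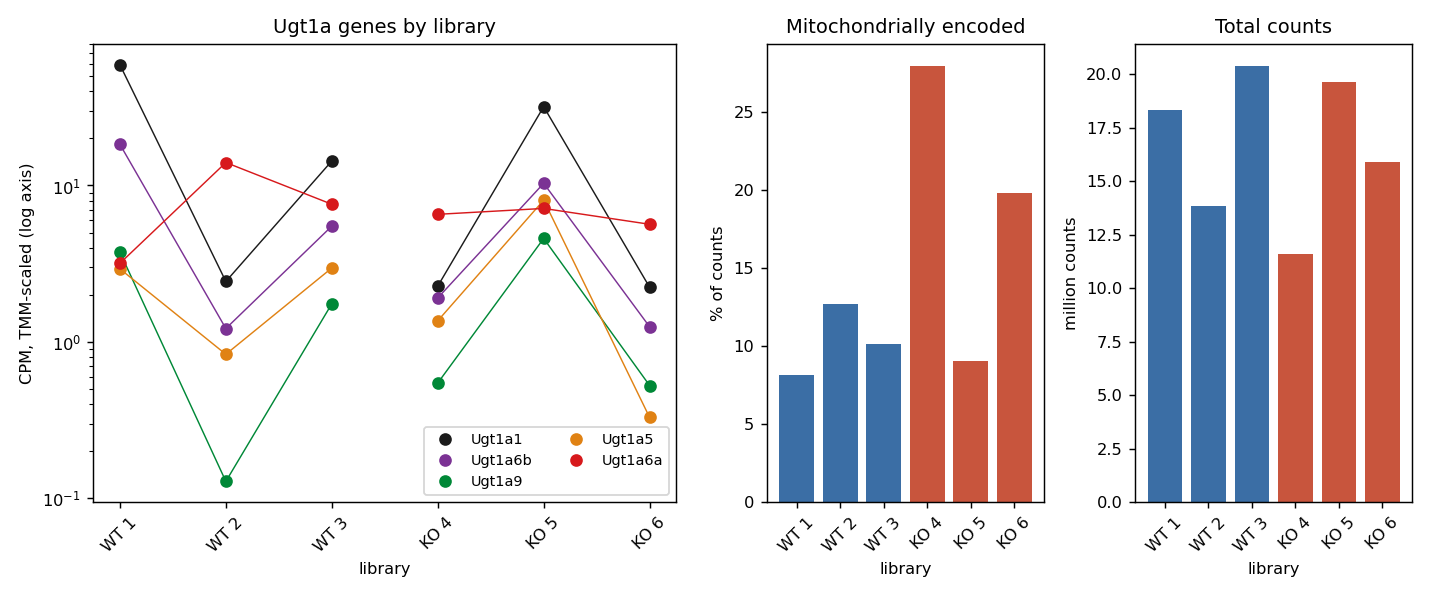
Left, level of the 5 tested Ugt1a genes in each library, in CPM after TMM scaling on a log axis, with lines joining the values of a gene within a group only to guide the eye; middle and right, the share of mitochondrially encoded counts and the total counts of the same libraries. Ugt1a1, Ugt1a6b, Ugt1a9 and Ugt1a5 are low in WT 2, KO 4 and KO 6, the 3 libraries with the largest mitochondrial shares (12.7%, 28.0% and 19.8%) and the lowest totals, while Ugt1a6a is not. The exonic bases that Ugt1a6a has alone lie outside the coding sequence it has in common with Ugt1a7c.

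Other members shared this order. WT 2, KO 4 and KO 6 were the 3 lowest libraries for 10 of the 23 tested members (Ugt1a1, Ugt1a5, Ugt1a6b, Ugt1a9, Ugt2a3, Ugt2b38, Ugt3a1, Ugt3a2, Sult1b1 and Sult1e1), against 21.3% of all tested genes. The abundant Ugt2b5, Ugt2b36, Sult2a8 and Sult1a1 were not among them. Nor was Ugt2b1, whose KO 5 value (249 CPM) lay below WT 2 (282 CPM). Within its groups, however, WT 2 was the lowest WT library, and KO 4 and KO 6 (133 and 152 CPM) lay below KO 5. Of the hepatocyte markers, the urea cycle enzyme Cps1 and albumin had the same 3 lowest libraries, whereas Apoa1, Ttr, Tat and Pck1 did not. Cps1 had 2198, 574 and 1408 CPM in WT and 198, 724 and 363 in KO. Albumin was less uneven, at 67229, 47854 and 68041 CPM in WT and 50471, 55593 and 53336 in KO. These 3 libraries were also the shallowest and the richest in mitochondrially encoded counts, and what part either played was not tested. The order was noticed in the data and is a description.

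Of the 20 members with too few counts to test, 10 were at 0 in every library. These are Ugt2a1, Ugt2a2 and Ugt1a8 among the UGTs and Sult1c1, Sult2a3, Sult2a4, Sult2a5, Sult2a6, Sult3a2 and Sult6b2 among the SULTs. A count of 0 allows a level of up to 0.139 to 0.272 CPM, depending on the library (3 counts; counting error only). Ugt2a1 and Ugt2a2 share almost all their exons, with 30 of 2570 and 140 of 2541 bases of their own, so a 0 there need not mean no RNA.

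The other 10 untested members had between 0 and 11 counts in any library. Among the female-predominant genes, Sult2a1 had 0, 0 and 0 counts in WT and 0, 2 and 1 in KO. Sult3a1 had 0, 0 and 0 in WT and 0, 4 and 3 in KO. Sult2a2 had 2 counts in WT 3 and 0 elsewhere. These counts are too few for a comparison between the groups. Ugt8a, which makes galactosylceramide in myelin, had 0 to 4 counts, and Sult4a1, a brain member, 0 to 2. Sult2b1 had 1 to 4 counts, Sult6b1 0 to 3 and Ugt1a2 0 to 4. Ugt1a10 had 0 to 7 and Ugt1a7c 1 to 11. Ugt1a2, Ugt1a10 and Ugt1a7c all share exons with the other Ugt1a genes.

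Genes that feed and surround conjugation were read from the same fit. Of 31 names listed for donor supply, deconjugation, export and regulation, 29 were in the table and all were tested; 0 passed the edgeR threshold, and DESeq2 and limma-voom called 0. At an unadjusted p under 0.05, 0 were higher and 1 (Arnt) was lower, against 5.37% and 3.21% of all tested genes. Groups did not overlap for 2 genes, Arnt and Slc35d1, both lower in KO, against 5.73% of all tested genes; both counts are near these shares. In all, 17 were fitted lower and 12 higher, with a median log2 fold change of −0.02.

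Among donor genes, Slc35d1, which carries UDP-glucuronate into the endoplasmic reticulum, had 146, 139 and 146 CPM in WT and 108, 121 and 108 in KO. The WT values were tight, and each KO value lay below them. The log2 fold change was −0.35 (SE 0.19; edgeR adjusted p = 0.635). Ugdh, which makes UDP-glucuronate, had 97.7 to 114 CPM in WT and 103 to 122 in KO (log2 fold change 0.08, SE 0.19). On the sulfate side 7 of 8 genes were fitted lower, against 50.9% of all tested genes, and some of these changes were close to 0. Bpnt1, which clears the by-product of sulfation, had 25.0 to 69.4 CPM in WT and 14.1 to 33.9 in KO (log2 fold change −0.93, SE 0.46), and the sulfate carrier Slc26a1 had 78.4 to 171 and 59.4 to 101 (−0.70, SE 0.34). Both had an edgeR adjusted p of 0.623, and without WT 1 both changes were nearer 0, at −0.37. In both genes WT 2, KO 4 and KO 6 were the lowest libraries, and the part of that order in these changes was not tested.

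Among regulators, Arnt, the partner of the aryl hydrocarbon receptor, had 29.2, 26.5 and 28.7 CPM in WT and 11.6, 20.1 and 18.1 in KO. The groups did not overlap. The log2 fold change was −0.76 (SE 0.24), with an unadjusted p of 0.0145 and an adjusted p of 0.449 (edgeR quasi-likelihood, Benjamini-Hochberg). Nr1i2, the pregnane X receptor that induces many conjugation genes, had 94.5, 98.8 and 109 CPM in WT and 169, 89.6 and 211 in KO. KO 5 lay below all WT libraries, and the log2 fold change was 0.63 (SE 0.32; edgeR adjusted p = 0.623). It was 0.35 without KO 6 and 0.91 without KO 5. Stat5b (log2 fold change 0.08, SE 0.19) and Bcl6 (−0.07, SE 0.48), regulators of sex-biased liver genes, had edgeR adjusted p-values of 0.901 and 0.967.

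Of the 7 genes that remove or export conjugates 6 were fitted higher, and 0 passed the threshold. Over all tested genes 50.9% were fitted lower. The sulfatases Arsa and Arsb had log2 fold changes of 0.21 (SE 0.19) and 0.12 (SE 0.32). The exporters Abcc4 and Abcg2 had 0.50 (SE 0.39) and 0.40 (SE 0.32). That of Abcg2 was 0.15 without WT 3, 0.24 without KO 6 and 0.67 without WT 1, and that of Abcc4 was 0.07 on log2 of FPKM plus 1. The edgeR adjusted p-values of these 4 genes lay between 0.697 and 0.908. Abcc2, the main canalicular exporter of glucuronides, had 293 to 341 CPM in WT and 256 to 324 in KO.

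**Figure D4:**
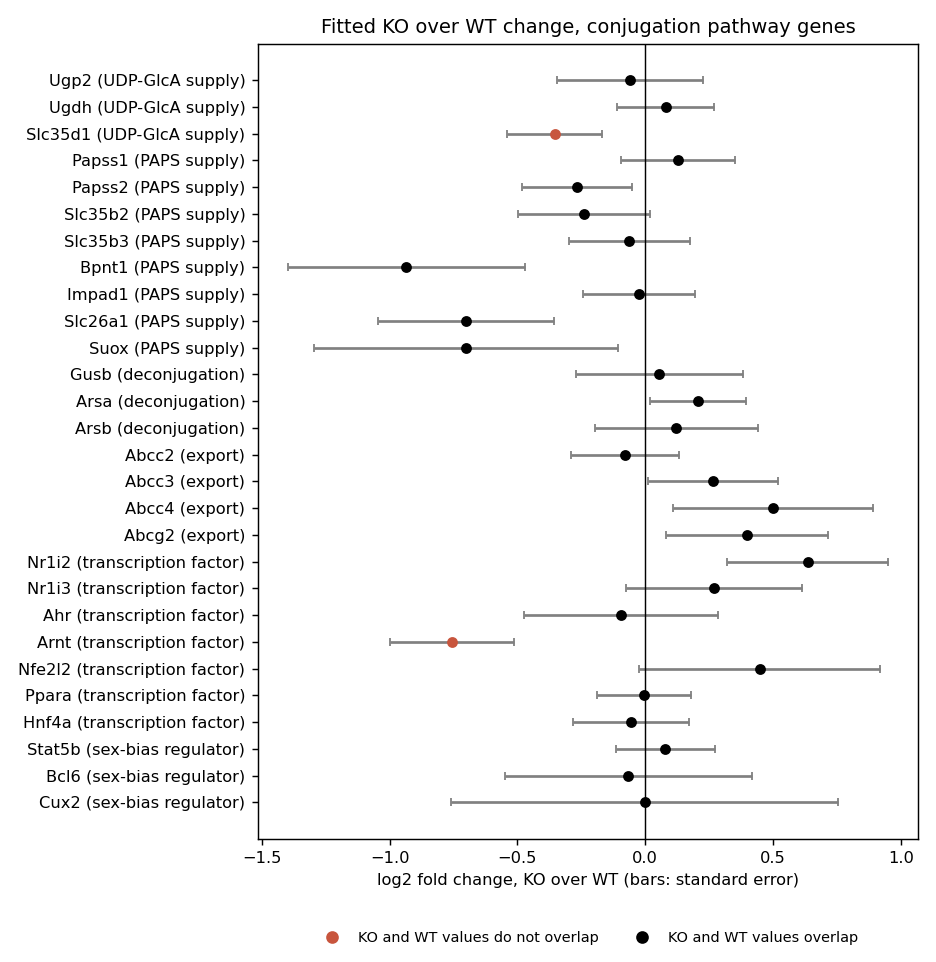
Fitted log2 fold change, KO over WT, for 28 of the 29 genes of donor supply, deconjugation, export and regulation, with bars of 1 standard error and the role beside each name; red points mark genes whose KO and WT values do not overlap. Slc35d1 (−0.35) and Arnt (−0.76) are the 2 red points, and the sulfate supply genes Bpnt1 and Slc26a1 lie at −0.93 and −0.70 with wider bars.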

How the data were processed

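The 6 liver libraries of male mice were compared by label, 3 WT against 3 KO. Whether each came from a mouse of its own was not stated in the labels, and p-values reflect the spread between libraries, which may be technical. The authors' deposited table holds whole read counts per gene, with names, positions and lengths. The authors' deposited FPKM table served only as an alternative. Build mm10, featureCounts 1.5.0-p3, DESeq2 1.16.1 and HISAT2 2.0.5 are listed in the submitters' processing notes. Neither the strand setting nor the rule for reads in overlapping genes is among them.

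The test was edgeR's quasi-likelihood test (edgeR 4.0.16, R 4.3.3), with TMM scaling, filterByExpr and Benjamini-Hochberg adjustment over 13693 genes at a threshold of 0.05. CPM are TMM-scaled, and RPKM divide them by the listed gene length. Each SE divides the log2 fold change by the root of its F statistic. The spread within groups was a biological coefficient of variation of 34.7%. No 2 libraries agreed within sampling noise (lowest chi-square per degree of freedom 42.3). All 43 genes have the same ends and lengths in GENCODE M21. Alternatives were DESeq2 1.42.0, limma 3.58.1 (voom, or log2 of FPKM plus 1 or 0.1), other scalings and filters, and leaving out each library. The scripts were tested on simulated data.

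Members and lists were chosen with earlier results of these data known. By rule, values in every library were given for members with an unadjusted p under 0.05 or groups that do not overlap. They were also given for the 3 most abundant per length of each family. Of each pathway role the 2 genes with the smallest p were named, some with ranges or log2 fold changes alone. The Ugt1a genes, Ugt2b38, Sult2a7, Abcc2, Cps1 and albumin were described after their values were seen. One pathway gene counted among the 29 is not reported here by name. Promoters of 37 members were in the RefSeq table.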

Additional observations from a re-analysis of the deposited data

How the results depend on the processing

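Over all genes the edgeR call of 2 became 61 with no filter on low counts, 1 with the library total alone, 1 with limma-voom, 170 with DESeq2 and 0 to 1 when 1 library was left out. For the conjugating enzymes the count of 0 became 1 with DESeq2 (Ugt2b1, log2 fold change −1.39, adjusted p = 0.0314) and was 0 in every other setting run, as was that of the 29 pathway genes in all of them. Ugt2b1 kept its sign throughout, from −1.67 to −1.08 with 1 library left out (edgeR adjusted p 0.197 to 1.00). So did Sult2a8 (−0.89 to −0.51) and Sult1a1 (−0.69 to −0.36). Signs turned with upper-quartile scaling for Ugt2b36 (0.026) and Ugt2b5 (0.0215); for Ugt1a5 with limma-voom (−0.12) and log2 of FPKM plus 0.1 (−0.22); and for Ugt1a9 with DESeq2 (−0.043) and log2 of FPKM plus 1 (−0.056) or 0.1 (−0.029). With 1 library left out they turned for Ugt1a1 (−3.49 to 0.54), Ugt1a5 (−1.46 to 1.08), Ugt1a6a (−0.74 to 0.25), Ugt1a6b (−2.42 to 0.43), Ugt1a9 (−1.80 to 1.01), Ugt2b5 (−0.13 to 0.12), Ugt2b36 (−0.18 to 0.14), Ugt2b37 (−0.66 to 0.27), Ugt3a1 (−0.47 to 0.24), Sult1c2 (−0.12 to 0.17), Ugdh (−0.0045 to 0.14), Arsb (−0.066 to 0.45), Stat5b (−0.032 to 0.17) and Bcl6 (−0.38 to 0.35). The UGT median ran from −0.91 without KO 5 to 0.12 without WT 1, and the SULT median from −0.68 to −0.34. The cause was not tested. No scaling moved the median of all genes by more than 0.05. No paired analysis was possible because the replicate numbers 1 to 6 are unique to each library. Counting error limits the 20 untested genes.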
